A study of Homo sapiens with 6 samples.

Results

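The heat shock protein and DNAJ chaperone genes were compared between untreated HEK293T cells and HEK293T cells treated with valproic acid (VPA). The genes were taken by symbol: the HSPA genes of the HSP70 and HSP110 families, HSP90AA1 and HSP90AB1, the small heat shock genes with an HSPB name, HSPD1 and HSPE1, the DNAJA, DNAJB and DNAJC genes, BAG1 to BAG6, HSPH1, and the heat shock factors HSF1, HSF2, HSF4 and HSF5. HSPA5, the HSP70 of the endoplasmic reticulum, was left out. This gave 80 of the 47470 genes listed, and 67 of the 80 passed the filter on low counts and were tested. The symbols reach beyond the cytosol. The products of 57 of the 80 genes are known mainly in the cytosol or nucleus, those of 9 in mitochondria and those of 11 in the endoplasmic reticulum, and 3 were not assigned a compartment. HSPA7 and DNAJB3 are annotated as pseudogenes.

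HEK293T cells derive from human embryonic kidney and express the large T antigen of SV40, itself a J domain protein, which untreated and treated cells shared. One group of 3 libraries came from cells that received nothing, with a wild-type genotype in the labels. The other group of 3 came from the same line after 1 day in 1 mM VPA, an inhibitor of histone deacetylases. Total RNA was made into strand-specific mRNA libraries, and the values are raw read counts per gene.

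Each library held between 18622267 and 18828495 counts on genes, so depth differed little. The libraries of a group differed by more than sampling noise (chi-square per gene of 1.62 to 4.80), and each was counted as 1 replicate. Nothing in the labels says that they came from separate cultures, so p-values measure the spread between these libraries, which may be technical. All 7 markers listed for HEK293T cells were counted, with summed normalized counts of 15648 to 15896 in untreated and 13610 to 14256 in VPA libraries. Markers of other cell types were low. The 3 endothelial markers summed to 0 to 4.19 in untreated and 17.2 to 24.1 in VPA libraries, the 3 blood markers to 35.6 to 37.8 and 16.3 to 26.8, the 3 fibroblast markers to 8.37 to 13.5 and 8.62 to 12.5, and the 2 hepatocyte markers to 0 to 3.15 and 0 to 1.92. The part of such markers in the results was not tested. In these bulk libraries, fewer cells of a type and less RNA per cell cannot be told apart.

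HSP70 proteins bind exposed stretches of unfolded proteins and release them in a cycle driven by ATP. J domain proteins, encoded by the DNAJ genes, bring clients to HSP70 and start its ATP hydrolysis, and the HSP110 and BAG proteins exchange its nucleotide. HSP90 matures kinases and receptors that HSP70 hands over, small heat shock proteins hold unfolding proteins without ATP, and HSP60 with HSP10 folds proteins inside mitochondria. HSF1 is the factor that switches many of these genes on in heat or proteotoxic stress, through inverted repeats of the unit GAA in their promoters.

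The promoters of 5 genes are shown because they hold such repeats and because the genes differed in what they did: HSPB1 and HSPB8 were higher in VPA libraries, HSPA1B and DNAJB6 were lower, and HSPA6 passed no test. Each sequence is the 250 bases before the start of the gene in RefSeq on GRCh38.p14, 5′ to 3′ on the plus strand, with the repeats in capitals. The letters searched were GAANNTTC and TTCNNGAA, each of which reads the same on both strands, and 3 alternating units in a row were counted from overlapping matches. The regions are chr7:76302423-76302672 for HSPB1, chr12:119178681-119178930 for HSPB8, chr6:31827488-31827737 for HSPA1B, chr7:157336754-157337003 for DNAJB6 and chr1:161524290-161524539 for HSPA6.
HSPB1: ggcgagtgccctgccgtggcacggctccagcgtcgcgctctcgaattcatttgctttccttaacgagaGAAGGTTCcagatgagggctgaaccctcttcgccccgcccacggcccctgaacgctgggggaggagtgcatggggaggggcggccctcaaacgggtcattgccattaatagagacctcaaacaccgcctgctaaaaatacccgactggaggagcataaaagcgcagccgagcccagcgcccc
HSPB8: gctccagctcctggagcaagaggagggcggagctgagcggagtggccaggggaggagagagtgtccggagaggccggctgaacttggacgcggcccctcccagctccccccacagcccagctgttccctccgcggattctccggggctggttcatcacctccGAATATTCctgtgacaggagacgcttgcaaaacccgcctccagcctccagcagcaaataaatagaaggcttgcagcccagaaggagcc
HSPA1B: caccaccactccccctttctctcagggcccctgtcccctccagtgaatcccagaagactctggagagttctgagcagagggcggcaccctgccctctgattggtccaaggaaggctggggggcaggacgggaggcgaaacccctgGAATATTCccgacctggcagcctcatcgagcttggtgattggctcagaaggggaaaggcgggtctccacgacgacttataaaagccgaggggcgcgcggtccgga
DNAJB6: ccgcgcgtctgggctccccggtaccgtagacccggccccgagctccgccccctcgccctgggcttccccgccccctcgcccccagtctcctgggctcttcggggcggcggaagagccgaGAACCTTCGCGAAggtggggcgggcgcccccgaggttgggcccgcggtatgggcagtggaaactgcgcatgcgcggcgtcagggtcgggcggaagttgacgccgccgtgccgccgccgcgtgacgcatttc
HSPA6: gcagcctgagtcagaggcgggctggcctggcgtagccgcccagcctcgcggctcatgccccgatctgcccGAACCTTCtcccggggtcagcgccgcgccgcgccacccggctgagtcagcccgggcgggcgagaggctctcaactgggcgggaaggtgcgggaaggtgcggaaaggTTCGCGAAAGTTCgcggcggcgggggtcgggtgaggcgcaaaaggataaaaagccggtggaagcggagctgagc

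The repeat starts 182 bases before the start of HSPB1, 88 bases before HSPB8 and 105 bases before HSPA1B. HSPB8 has another match that starts 4 bases after its start. In DNAJB6 the overlapping matches start 131 and 126 bases before the start, and in HSPA6 a separate match starts 180 bases before it and an overlapping pair 74 and 69 bases before it. Promoters of 69 of the 80 genes were found in the table of 300-base windows (250 bases before to 50 after the start). At least 1 of the 2 forms was present in 15 of these 69 (21.7%), against 13.7% of all 27305 promoters in the table. The matches of HSPA1A and HSPA1L are the same bases read from opposite strands, so the 15 are not all separate sites. A run of 3 alternating units was present in 4 of 69 (DNAJA1, DNAJB6, HSPA6 and HSPA8), or 5.8%, against 0.487% of all promoters. Among the members tested, a match was present in 3 of 13 promoters of genes that were higher in VPA libraries, 6 of 30 of genes that were lower and 2 of 17 of genes without a call. These letters were not in the windows of HSPH1, HSPD1, HSP90AA1, HSP90AB1 and DNAJB1. Only 1 window per gene was searched, so other starts of these genes were not covered. The HSP90AA1 window (chr14:102139700-102139999) lies at the outer end of a gene that spans 102080742 to 102139749. A match is a description of the sequence and not evidence of binding.

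Normalized counts below are scaled to the mean library by TMM factors, which take most genes as unchanged, and log2 fold changes are VPA over untreated. At an adjusted p under 0.05 alone (edgeR quasi-likelihood test, Benjamini-Hochberg adjustment over 15298 genes), 15 of the 67 tested genes were higher in VPA libraries, 32 were lower and 20 had no call. Across all tested genes 32.9% were higher and 30.0% were lower, against 22.4% and 47.8% of the chaperone genes. These counts are those of the TMM scaling, and the split was 21 higher and 22 lower when libraries were scaled by their totals, and 29 higher and 10 lower when they were scaled by ribosomal protein genes. The share of higher among called genes was thus 31.9%, 48.8% and 74.4% under the 3 scalings. Of all tested genes 43.9% were higher and 15.5% lower with library totals, and 60.1% and 5.71% with the ribosomal protein scaling. DESeq2 size factors gave 13 higher and 32 lower. Of the 15 genes higher under TMM, HSPA12B and DNAJC15 passed the filter on low counts only through the VPA libraries.

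With the log2 fold change also required to be 1 or more in size, 3 genes were up-regulated (HSPB1, HSPB8 and DNAJC15) and 0 were down-regulated, whereas 12.0% of all tested genes were up-regulated and 0.503% down-regulated. DESeq2, with another filter, put HSPB1, HSPB8 and DNAJC5B past both thresholds upward, not DNAJC15, and 0 downward. At an adjusted p under 0.05 alone, edgeR called 32 lower and DESeq2 30. The log2 fold changes ran from -0.81 for HSPA1B to 1.50 for HSPB8.

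The median log2 fold change of the 67 genes was -0.15, against 0.0058 for all tested genes. The scaling moved the median of all genes to -0.019 with DESeq2 size factors, 0.14 with library totals and 0.27 with the ribosomal protein scaling. It moved the chaperone genes along with the rest, to -0.17, -0.014 and 0.12, so their difference from the median of all genes was -0.15 under each of these scalings.

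Part of the balance goes with the level of the genes. Of the 34 chaperone genes whose mean was 1000 normalized counts or more, 5 (14.7%) were higher and 25 (73.5%) lower, with a median of -0.27. All tested genes at that level were higher in 14.6% and lower in 57.4%, with a median of -0.15. Of the 33 tested chaperone genes under that mean, 10 (30.3%) were higher and 7 (21.2%) lower, against 40.9% and 18.1% of all tested genes there. The medians were -0.085 for these 33 genes and 0.14 for all tested genes under that mean. The untreated and VPA libraries did not overlap for 49 of the 67 genes (17 higher and 32 lower in VPA), and for 65.8% of all tested genes.

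**Figure D1:**
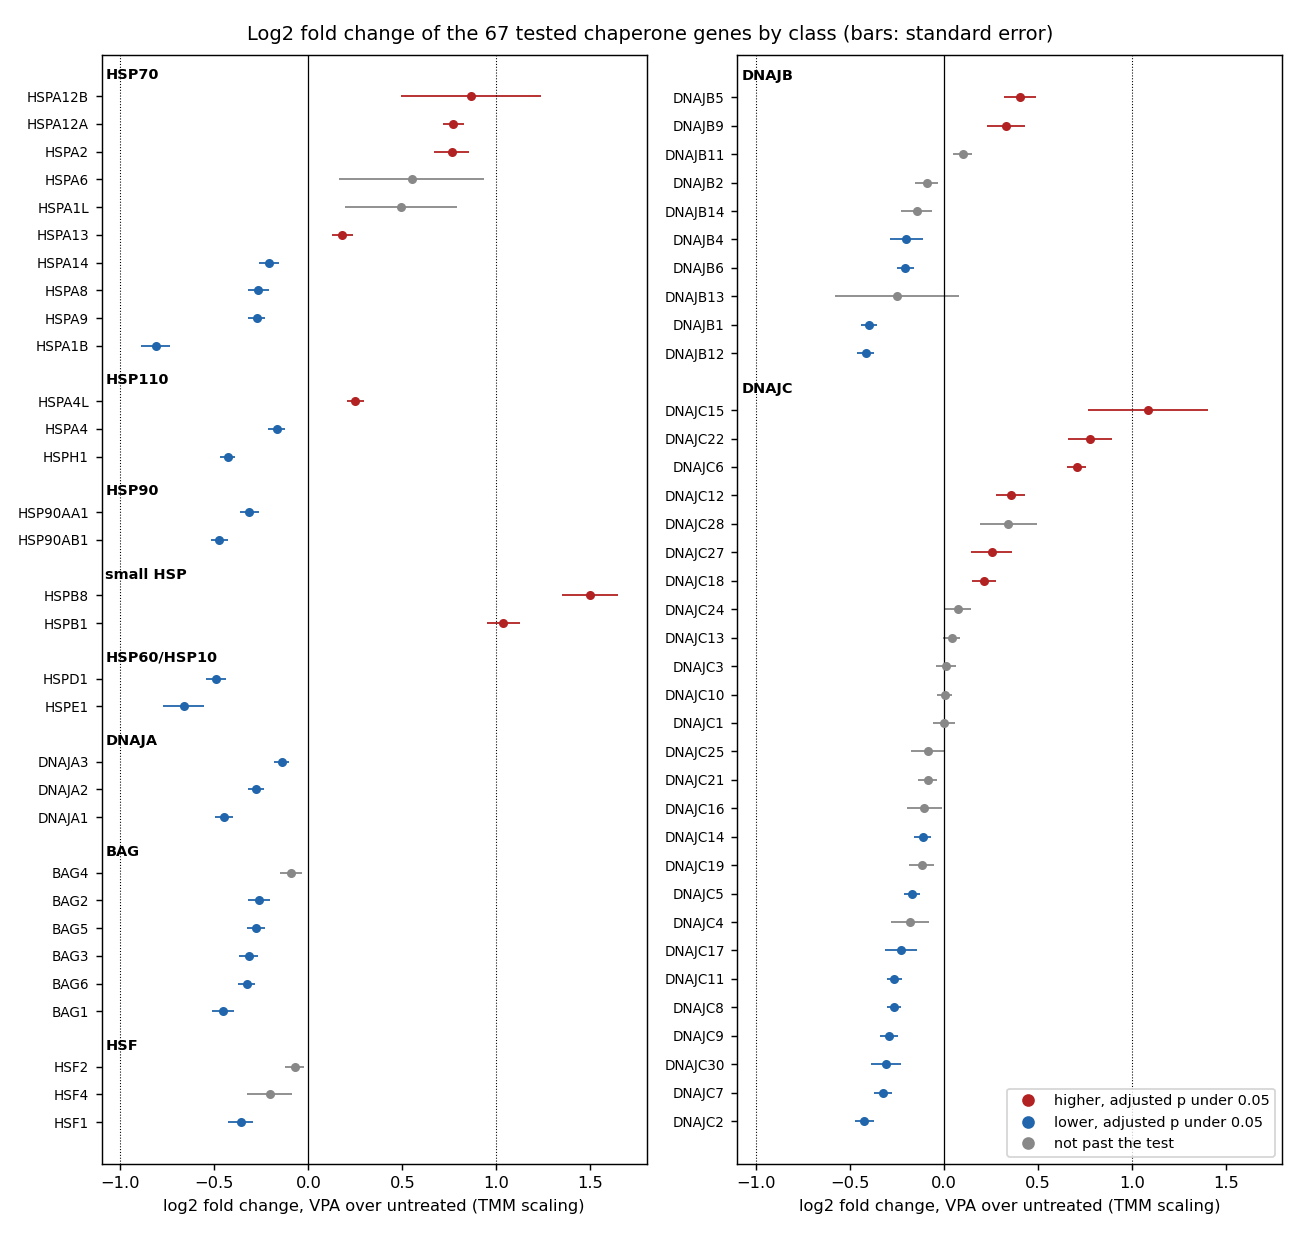
Log2 fold change under the TMM scaling (VPA over untreated, x axis) of each of the 67 tested chaperone genes, 1 row per gene, grouped by class, with error bars of 1 SE, dotted lines at a size of 1 and colours for the call at an adjusted p under 0.05. The 2 small heat shock genes lie above 1, both HSP90 genes and HSPD1 and HSPE1 lie below 0, and the HSP70 and DNAJC classes spread to both sides.

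Small heat shock proteins. HSPB1 and HSPB8, the 2 of 7 HSPB genes with enough counts, were both higher in VPA libraries under each of the 4 scalings. HSPB1 (HSP27) is an abundant holdase that also binds actin. Its normalized counts were 1205, 988 and 1000.4 in untreated and 2442, 2101 and 2005 in VPA libraries. Every VPA library stood above every untreated one. The means were 1065 ± 122 and 2182 ± 229.5 (SD, n = 3), a log2 fold change of 1.04 (SE 0.088, adjusted p = 1.26e-06), or 2.05-fold, by edgeR's quasi-likelihood test. The value fell under the threshold of 1, to 0.95, without VPA library 1, to 0.98 without untreated library 2 and to 0.99 without untreated library 3, with the adjusted p under 0.05 each time. Of the 75-base windows of its canonical transcript, 9.39% also occur elsewhere, most in the pseudogene HSPB1P1.

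HSPB8 (HSP22) works with BAG3 in the removal of misfolded proteins by autophagy. It had 46.6, 33.5 and 45.1 normalized counts in untreated and 126, 123 and 105 in VPA libraries. The groups were far apart for their spread, with means of 41.7 ± 7.18 and 118 ± 11.4 (SD, n = 3). The log2 fold change was 1.50 (SE 0.15, adjusted p = 1.66e-08), or 2.83-fold, by edgeR, and it stayed above 1 without any 1 library. HSPB8 was thus higher while BAG3 was lower (-0.32, described with the BAG genes).

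The other 5 HSPB genes were too low to test. HSPB2 had 0 counts in every library, which allows up to 3 of 112364165 gene counts over the 6 libraries (counting error only). HSPB3 had 8 counts in all, HSPB6 and HSPB7 had 4 each and HSPB9 had 27, of which 16 were in untreated and 11 in VPA libraries.

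HSP70 genes. Of the 12 genes with an HSP70 name, 10 were tested, and 4 were higher (HSPA12A, HSPA2, HSPA12B and HSPA13) and 4 lower (HSPA1B, HSPA9, HSPA8 and HSPA14) in VPA libraries. With library totals 4 were higher and 3 lower, and with the ribosomal protein scaling 5 and 1. All tested genes were higher in 32.9% and lower in 30.0% under TMM. These shares were 43.9% and 15.5% with library totals, and 60.1% and 5.71% with the ribosomal protein scaling. The higher genes had fewer counts than the most counted lower ones. HSPA1B, the stress-inducible cytosolic HSP70, had the largest decrease of the 67 genes.

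The untreated libraries had 7023, 6085 and 5697 normalized counts of HSPA1B and the VPA libraries 3881, 3379 and 3441, with means of 6268 ± 682 and 3567 ± 274 (SD, n = 3). The lowest untreated library lay above the highest VPA library. The log2 fold change was -0.81 (SE 0.076, adjusted p = 2.90e-06) by edgeR, or 1.76-fold lower, and -0.68 with library totals and -0.55 with the ribosomal protein scaling. HSPA1B lies on the plus strand of chromosome 6 at 31827738 to 31830254 (RefSeq, GRCh38.p14), beside its near-identical copy HSPA1A at 31815543 to 31817942.

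HSPA1A itself was all but uncounted. The untreated libraries had 2, 2 and 3 raw counts of it and the VPA libraries had 0, 1 and 2, too few for the test. Of its 75-base windows 73.8% also occur in other genes, mostly HSPA1B, and of those of HSPA1B 73.3% are shared. The counting set aside reads without a unique place, so how the reads of the pair were split between the 2 copies is uncertain, and with it the level of each. The 20 rows for further copies of chaperone symbols, among them 4 each of HSPA1A and HSPA1B, held 0 counts.

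HSPA8 (HSC70) is the constitutive cytosolic HSP70. It had 54076, 60510.5 and 64282 normalized counts in the untreated and 47083, 50181 and 51325 in the VPA libraries, with a mean of 59623 ± 5161 against 49530 ± 2195. Its log2 fold change was -0.27 (SE 0.056, adjusted p = 0.000299) by edgeR. The libraries did not overlap, but the decrease was small and was -0.14 with library totals and 0.0016 with the ribosomal protein scaling. The ratio of HSPA1A plus HSPA1B counts to HSPA8 counts within each library, which no scaling touches, was 0.130, 0.101 and 0.0887 in untreated and 0.0824, 0.0674 and 0.0671 in VPA libraries. Its log2 difference was -0.55, and the exact permutation test (two-sided) gave p = 0.1, the smallest that 3 against 3 libraries allow.

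HSPA9 (mortalin), the mitochondrial HSP70, went from 14337 ± 458 to 11842 ± 493, a log2 fold change of -0.28 (SE 0.043, adjusted p = 9.80e-06) by edgeR, and HSPA14, a ribosome-bound HSP70, from 873 ± 33.7 to 754 ± 18.0, -0.21 (SE 0.053, adjusted p = 0.00161). With the ribosomal protein scaling HSPA9 was at -0.0075 and HSPA14 turned to 0.057, and neither passed the test. No library overlapped between the groups for either gene.

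On the other side stood HSPA12A and HSPA2. HSPA12A is a distant HSP70 relative best known from brain. It had 703, 789 and 802 normalized counts in the untreated and 1298, 1347 and 1267 in the VPA libraries. The VPA libraries were all well above the untreated ones, and the log2 fold change was 0.77 (SE 0.055, adjusted p = 8.65e-11) by edgeR, or 1.71-fold. HSPA2, the HSP70 known for its role in testis, had 141, 143 and 157 normalized counts in the untreated and 251, 229 and 269 in the VPA libraries. This was 1.70-fold, with no overlap between the groups, and a log2 fold change of 0.76 (SE 0.094, adjusted p = 4.12e-07).

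HSPA12B, a gene of endothelial cells, was near the limit of the counts, at 5.18, 7.33 and 7.35 normalized counts in the untreated and 15.3, 9.63 and 11.5 in the VPA libraries. It passed edgeR's test (log2 fold change 0.87, SE 0.37, adjusted p = 0.0473) but not that of DESeq2 (adjusted p = 0.263). Its raw counts were 5, 7 and 7 in untreated and 16, 10 and 12 in VPA libraries. It thus passed the filter on low counts only through the group where it was higher. The summed endothelial markers given above were also higher in VPA libraries, mostly through VWF. VWF had mean normalized counts of 1.05 in untreated and 16.0 in VPA libraries, while PECAM1 and CDH5 were too low to test. The part of such markers in the HSPA12B value was not tested. HSPA13, an HSP70 of the endoplasmic reticulum, rose from 1072 ± 24.7 to 1215 ± 97.6 with a log2 fold change of 0.18 (SE 0.055, adjusted p = 0.00719), and missed the threshold with DESeq2 (adjusted p = 0.058). HSPA6, the strictly heat-inducible HSP70 and the one with 3 alternating units in the promoter shown above, was at 4.14, 9.42 and 7.35 in the untreated and 9.58, 11.6 and 9.57 in the VPA libraries, and its log2 fold change of 0.55 (SE 0.39) did not pass the test (adjusted p = 0.225). HSPA1L, at 15.6 and 22.1 normalized counts, did not pass it either.

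**Figure D2:**
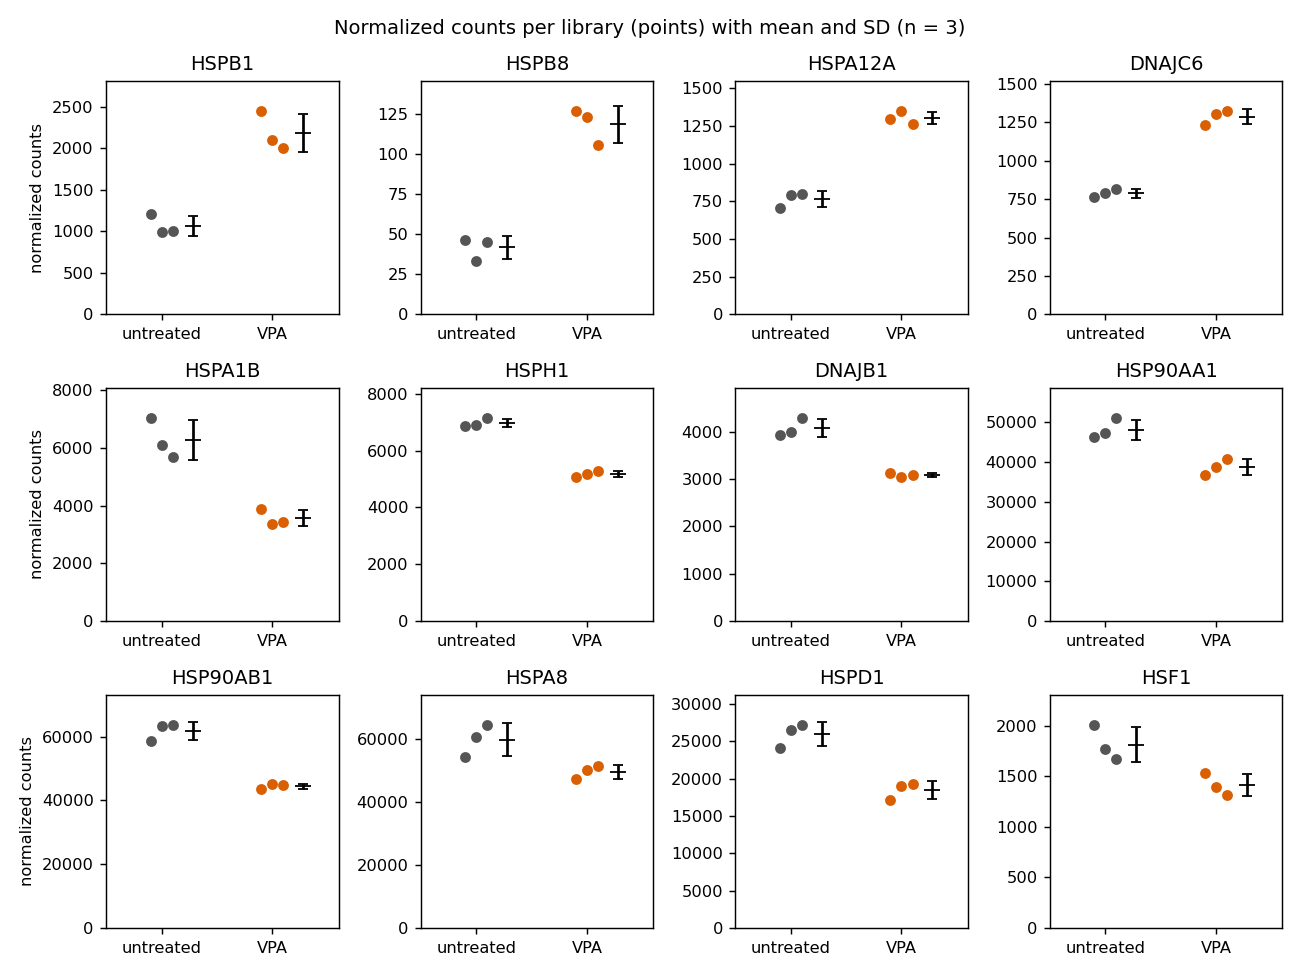
Normalized counts (linear y axis from 0) of 12 chaperone genes in the 3 untreated (grey) and 3 VPA (orange) libraries, with 1 panel per gene, 1 point per library and the mean with SD beside the points. HSPB1, HSPB8, HSPA12A and DNAJC6 sit higher in all VPA libraries and the other 8 genes lower, without overlap under the TMM scaling.

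HSP110 genes. These relatives of HSP70 act as its nucleotide exchange factors, and the 3 did not move together. HSPH1 (HSP105) had 6878, 6893 and 7138 normalized counts in the untreated and 5067, 5165 and 5283 in the VPA libraries, with narrow spread in both groups. Its log2 fold change was -0.43 (SE 0.039, adjusted p = 4.00e-09) by edgeR, and -0.30 with library totals and -0.16 with the ribosomal protein scaling. HSPA4 fell less, from 8442 ± 445 to 7506 ± 372 (log2 fold change -0.17, SE 0.046, adjusted p = 0.00297), a direction that turned to 0.099 with the ribosomal protein scaling. HSPA4L, a paralog of HSPA4, rose from 1886 ± 80.5 to 2243 ± 92.3, with a log2 fold change of 0.25 (SE 0.046, adjusted p = 7.16e-05).

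HSP90 and HSP60. Both cytosolic HSP90 genes were lower in VPA libraries. HSP90AB1, the constitutive form, had 58567, 63236 and 63663 normalized counts in the untreated and 43646, 45134 and 44786 in the VPA libraries, a log2 fold change of -0.47 (SE 0.046, adjusted p = 1.24e-08) by edgeR. HSP90AA1, the inducible form, had 46266, 47216 and 51039.6 in the untreated and 36769, 38685 and 40732 in the VPA libraries, a log2 fold change of -0.31 (SE 0.049, adjusted p = 1.05e-05). Neither gene's groups overlapped. HSP90AB1 stayed lower under every scaling (-0.34 with library totals and -0.21 with the ribosomal protein scaling), while HSP90AA1 was -0.18 with library totals and -0.046 with the ribosomal protein scaling, where it no longer passed the test.

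The size of the decrease was compared within libraries. The ratio of HSP90AA1 to HSP90AB1 counts within a library was 0.790, 0.747 and 0.802 without VPA and 0.842, 0.857 and 0.909 with it. Every VPA library had the higher ratio. The means were 0.779 ± 0.029 and 0.870 ± 0.0352 (SD, n = 3), a log2 difference of 0.16, and the exact permutation test (two-sided) gave its smallest possible value, p = 0.1.

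HSPD1 and HSPE1 encode mitochondrial HSP60 and its cochaperonin HSP10, and the 2 genes lie head to head on chromosome 2 (HSPD1 at 197486584 to 197500274 on the minus strand, HSPE1 at 197500379 to 197503449 on the plus strand, GRCh38.p14). HSPD1 had 24071, 26544 and 27156 normalized counts in the untreated and 17109, 18935 and 19296 in the VPA libraries. For HSPE1 these values were 232, 210.4 and 175 in untreated and 126, 143 and 121 in VPA libraries. Both were lower in every VPA library than in any untreated one.

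The log2 fold changes were -0.49 (SE 0.052, adjusted p = 5.50e-08) for HSPD1 and -0.66 (SE 0.11, adjusted p = 2.21e-05) for HSPE1 by edgeR, and both kept their call under library totals and the ribosomal protein scaling. HSPE1 is the short one of the pair, and 40.4% of its 75-base windows are shared, most with the read-through gene HSPE1-MOB4, which is listed at 0 counts. Its low count beside HSPD1 is therefore uncertain as a level. For HSPD1 11.1% of the windows are shared, most with the pseudogene HSPD1P1.

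Levels among the genes. Per kilobase of the canonical GENCODE transcript, HSPA8 stood highest of the chaperone genes in untreated cells at 26335 ± 2279.5 normalized counts per kb, beside HSP90AB1 at 24196 ± 1106. Within 1 SD these neighbours overlapped in untreated libraries, and in VPA libraries they were at 21877 ± 969 and 17425 ± 305. HSP90AA1 followed at 14924 ± 783 and HSPD1 at 11547 ± 728 per kb. HSPA1B changed places, from rank 8 at 2490.4 ± 271 to rank 13 at 1417 ± 109 per kb. HSPB1 went the other way, from rank 14 at 1370.1 ± 157 to rank 6 at 2809 ± 295 per kb.

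The 80 genes together took 1.54%, 1.60% and 1.64% of the gene counts without VPA and 1.36%, 1.42% and 1.44% with it. Every VPA library was lower, with means of 1.59 ± 0.052% and 1.40 ± 0.0413% (SD, n = 3) and p = 0.1 by the exact permutation test (two-sided), the smallest possible. This share rests on few genes, since the 5 most counted (HSPA8, HSP90AB1, HSP90AA1, HSPD1 and HSPA9) held 66.1% of the chaperone counts.

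**Figure D3:**
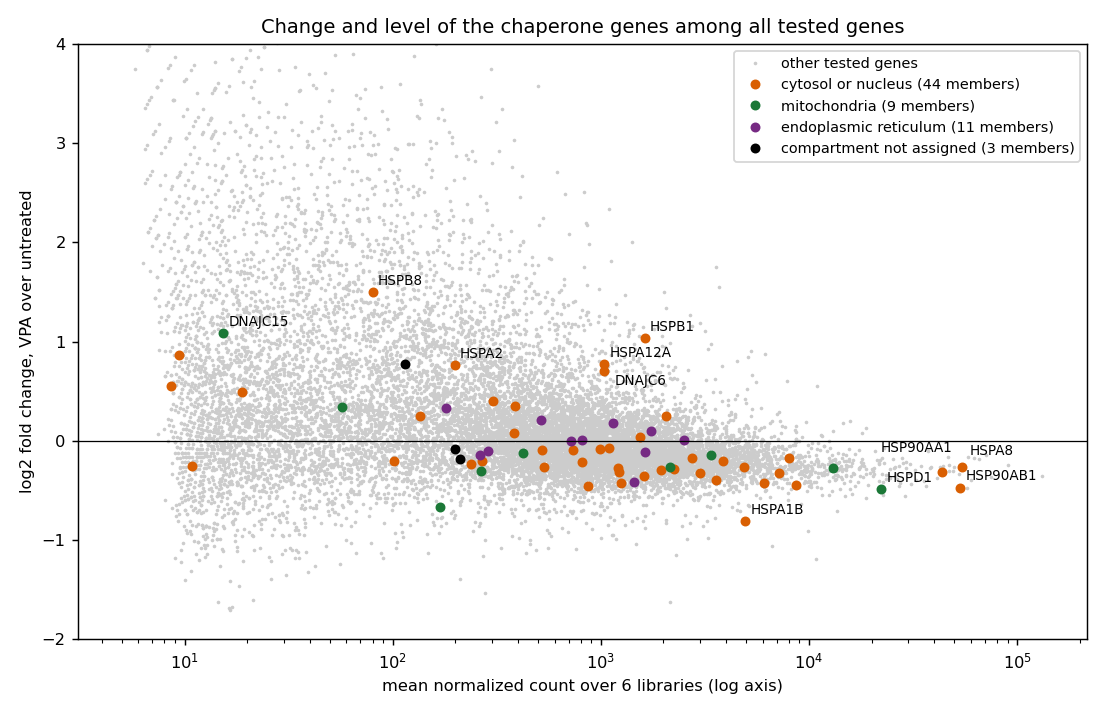
Log2 fold change (VPA over untreated, y axis) against the mean normalized count over 6 libraries (x axis, log scale) for all tested genes in grey and for the 67 chaperone genes coloured by compartment. The most counted chaperone genes lie below 0 under the TMM scaling drawn here (HSPA8 is at 0.0016 with the ribosomal protein scaling), and 65 tested genes lie outside the plotted range of the y axis.

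DNAJA and DNAJB genes. DNAJA proteins are the closest relatives of bacterial DnaJ, and the 3 tested of 4 were all lower under TMM, though DNAJA3 turned to 0.13 and was called higher with the ribosomal protein scaling. DNAJA1, a cytosolic partner of HSC70, had 9684, 10109.5 and 10222 normalized counts in the untreated and 6782, 7443 and 7775 in the VPA libraries. The groups were apart, and the log2 fold change was -0.45 (SE 0.047, adjusted p = 3.33e-08) by edgeR. DNAJA2 was at -0.28 (adjusted p = 6.41e-06) and the mitochondrial DNAJA3 at -0.14 (adjusted p = 0.00336). With library totals DNAJA1 and DNAJA2 were lower, and with the ribosomal protein scaling DNAJA1 alone was. DNAJA4 had 1 count in all and was not tested.

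Of 13 DNAJB genes 10 were tested, with 2 higher (DNAJB5 and DNAJB9) and 4 lower (DNAJB12, DNAJB1, DNAJB6 and DNAJB4). With library totals 3 were higher and 2 lower, and with the ribosomal protein scaling 4 and 2. All tested genes were higher in 32.9% and lower in 30.0% under TMM. These shares were 43.9% and 15.5% with library totals, and 60.1% and 5.71% with the ribosomal protein scaling. DNAJB1 (HSP40), the stress-inducible partner of HSP70, had 3934, 3994 and 4279.8 normalized counts in the untreated and 3129.7, 3042 and 3085 in the VPA libraries. All 3 VPA libraries were lower, with a log2 fold change of -0.40 (SE 0.042, adjusted p = 3.46e-08) by edgeR, which was -0.27 with library totals and -0.13 with the ribosomal protein scaling. DNAJB12, a membrane J protein of the endoplasmic reticulum, fell by about as much (log2 fold change -0.42, SE 0.045, adjusted p = 5.10e-08).

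DNAJB6, which keeps polyglutamine proteins from aggregating, had the most counts of the DNAJB genes. It went from 4153 ± 238 to 3600.3 ± 103, a log2 fold change of -0.21 (SE 0.044, adjusted p = 0.000374) by edgeR that turned to 0.063 with the ribosomal protein scaling. DNAJB4 passed the threshold only just (-0.20, adjusted p = 0.0497), its groups overlapped, and DESeq2 did not call it (adjusted p = 0.121). DNAJB5 had 254, 247 and 280.3 normalized counts in the untreated and 304, 371 and 358 in the VPA libraries, and a log2 fold change of 0.40 (SE 0.086, adjusted p = 0.000324). DNAJB9 (ERdj4), a J protein of the endoplasmic reticulum induced in the unfolded protein response, had 169.8, 169 and 142 in untreated and 192, 219 and 193 in VPA libraries, without overlap. Its log2 fold change was 0.33 (SE 0.099, adjusted p = 0.0064), it was not called by DESeq2 (adjusted p = 0.067), and it fell to 0.24 (adjusted p = 0.053) without untreated library 3. DNAJB2, DNAJB11, DNAJB13 and DNAJB14 had no call, and DNAJB3, DNAJB7 and DNAJB8 had 0 counts in every library.

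DNAJC genes. This is the most varied class, in which the J domain sits beside other domains. Of 27 genes 26 were tested, with 6 higher and 9 lower under TMM, 11 and 5 with library totals, and 14 and 1 with the ribosomal protein scaling. Under TMM that was 23.1% and 34.6% of the 26, against 32.9% and 30.0% of all tested genes. All tested genes were higher in 43.9% and lower in 15.5% with library totals, and in 60.1% and 5.71% with the ribosomal protein scaling. DNAJC6 (auxilin), which uncoats clathrin vesicles in neurons, had 761, 788 and 819 normalized counts in the untreated and 1230.4, 1307 and 1321 in the VPA libraries. Its groups stood far apart, with a log2 fold change of 0.70 (SE 0.052, adjusted p = 1.29e-10) by edgeR, or 1.63-fold. GAK, the ubiquitous auxilin, carries no DNAJ name and was at -0.12 (adjusted p = 0.0408), and was not called lower with library totals.

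DNAJC22 had 77.6, 86.9 and 90.3 normalized counts in the untreated and 150.4, 133 and 153 in the VPA libraries. The groups did not overlap, and the log2 fold change was 0.78 (SE 0.12, adjusted p = 5.37e-06). DNAJC12, which assists the aromatic amino acid hydroxylases, had 313, 323 and 380.0 in untreated and 407, 446 and 446 in VPA libraries, with a log2 fold change of 0.36 (SE 0.077, adjusted p = 0.000417). DNAJC15, of the mitochondrial inner membrane, passed both thresholds from few counts, with 9.32, 12.6 and 7.35 normalized counts in the untreated and 22.0, 26.0 and 14.4 in the VPA libraries. The lowest VPA library was only slightly above the highest untreated one. Raw counts of DNAJC15 were 9, 12 and 7 in untreated and 23, 27 and 15 in VPA libraries. The gene thus passed the filter on low counts only through the group where it was higher.

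The log2 fold change of DNAJC15 was 1.08 (SE 0.32, adjusted p = 0.00544) by edgeR. DESeq2 gave 1.07 with an adjusted p of 0.0617, and the value was 0.91 without untreated library 3 and 0.89 without VPA library 2. DNAJC18 (0.21) and DNAJC27 (0.25) were the other 2 higher genes, and neither was called by DESeq2 (adjusted p = 0.066 and 0.263).

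Among the 9 lower DNAJC genes, DNAJC2 (MPP11), which recruits HSP70 to the ribosome, fell most, from 1434 ± 59.2 to 1069 ± 58.7 (log2 fold change -0.42, SE 0.051, adjusted p = 3.24e-07). Of its windows 19.5% are shared, most with PMPCB on the opposite strand. DNAJC7, which also binds HSP90, was at -0.32 and DNAJC8, a spliceosome-associated J protein and the most counted of the class, at -0.27 (5306 ± 81.7 against 4407 ± 105). DNAJC8 was at 0.00035 with the ribosomal protein scaling. The others were DNAJC30, DNAJC9, DNAJC11, DNAJC17, DNAJC5 (the cysteine string protein of synaptic vesicles) and DNAJC14, from -0.31 for the first to -0.11 for the last, and DNAJC17 was not called by DESeq2 (adjusted p = 0.0756). DNAJC9, a histone chaperone, shares 73.8% of its windows, most with FAM149B1 on the opposite strand, and is uncertain. DNAJC14 (54.1%), DNAJC11 (42.9%) and DNAJC17 (28.5%) also share many of their windows and are uncertain in the same way.

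The 11 DNAJC genes without a call ran from -0.18 for DNAJC4 to 0.34 for DNAJC28 (adjusted p = 0.0535). Nearest to 0 were 3 J proteins of the endoplasmic reticulum, DNAJC1, DNAJC10 and DNAJC3, with DNAJC10 at 2515 ± 32.5 and 2520.1 ± 68.2. DNAJC5B was below the filter but uneven, with 0, 1 and 0 raw counts in the untreated and 14, 9 and 11 in the VPA libraries, a ratio of 34.2 (95% exact interval 5.74 to 1390, counting error only). Every VPA library was above every untreated one. Without the filter its adjusted p was 1.68e-07 by edgeR, and DESeq2 gave 0.00108.

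BAG genes. BAG proteins release nucleotide from HSP70 and tie it to other pathways. Under TMM 5 of 6 were lower and BAG4 had no call (-0.09, adjusted p = 0.166), while with library totals 4 were lower and with the ribosomal protein scaling 1 was lower (BAG1) and 1 higher. All tested genes were lower in 30.0% under TMM, 15.5% with library totals and 5.71% with the ribosomal protein scaling. BAG1, which links HSP70 to the proteasome, had 986, 1058 and 977 normalized counts in the untreated and 746, 788 and 671 in the VPA libraries. The groups did not overlap, and the log2 fold change was -0.45 (SE 0.060, adjusted p = 1.02e-06) by edgeR. BAG3, the stress-induced member that directs clients to autophagy with HSPB8, had 1358, 1352 and 1345 in untreated and 1158, 1065 and 1031 in VPA libraries. It fell by less, with a log2 fold change of -0.32 (SE 0.050, adjusted p = 1.15e-05), and was -0.19 with library totals and -0.050 with the ribosomal protein scaling. BAG6, the most counted, was at -0.33 (8006 ± 326 against 6372 ± 297), BAG5 at -0.28 and BAG2 at -0.26.

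Heat shock factors. HSF1 had 2009.5, 1770.0 and 1671 normalized counts in the untreated and 1533, 1398 and 1316 in the VPA libraries. The highest VPA library lay under the lowest untreated one, and the log2 fold change was -0.36 (SE 0.066, adjusted p = 0.000188) by edgeR. It was -0.23 with library totals and -0.093 with the ribosomal protein scaling, where it no longer passed the test. HSF2 went from 1126 ± 29.5 to 1070.3 ± 31.0, a log2 fold change of -0.07 (SE 0.049) that did not pass the test (adjusted p = 0.197), and it was 0.058 with library totals and 0.19 with the ribosomal protein scaling, where it was called higher. HSF4 was at -0.21 (adjusted p = 0.141), and HSF5 had 0 counts. These are levels of mRNA, and the activity of HSF1 was not measured.

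**Figure D4:**
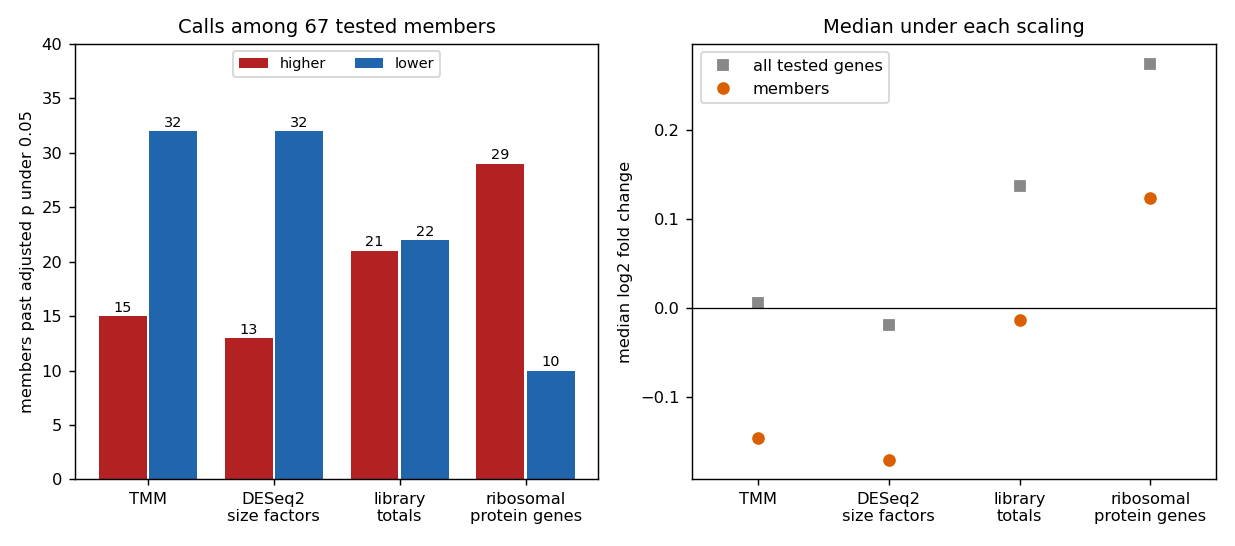
Under 4 scalings of the libraries (x axes), the number of the 67 tested chaperone genes (members) called higher or lower at an adjusted p under 0.05 (left, bars) and the medians of the log2 fold changes, in grey for all genes and in orange for the chaperone genes (right, points). The lower calls go from 32 under TMM to 10 with the ribosomal protein genes. The median of the chaperone genes stays 0.15 under that of all genes, which follows because a scaling shifts all genes nearly alike.

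Under the ribosomal protein scaling 10 genes were still called lower: HSPA1B, HSPE1, HSPD1, HSP90AB1, HSPH1, DNAJA1, DNAJB1, DNAJB12, DNAJC2 and BAG1. The genes past both thresholds upward under it were 7: HSPB8 (1.77), DNAJC15 (1.35), HSPB1 (1.30), HSPA12B (1.13), HSPA12A (1.04), DNAJC22 (1.04) and HSPA2 (1.03). Of these, HSPA12B and DNAJC15 passed the filter on low counts only through the VPA libraries.

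**Figure D5:**
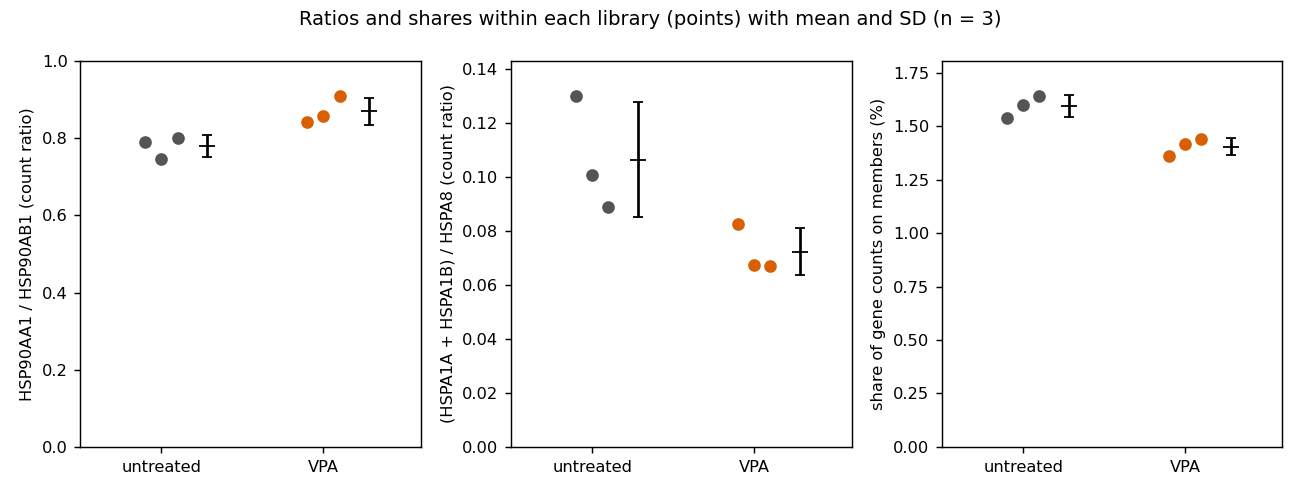
Quantities computed within each of the 3 untreated and 3 VPA libraries, with the mean and SD beside the points and linear y axes from 0. The ratios of HSP90AA1 to HSP90AB1 counts and of HSPA1A plus HSPA1B to HSPA8 counts are touched by no scaling. The percent of gene counts on the 80 genes (members) is taken of the library total and so depends on it. The first ratio is higher, and the second ratio and the percent are lower, in every VPA library.

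By compartment, 10 of the 44 tested cytosolic or nuclear genes were higher and 24 lower (median -0.21), 1 of the 9 mitochondrial genes was higher and 6 lower (median -0.27), and 3 of the 11 genes of the endoplasmic reticulum were higher and 2 lower (median 0.0028). With the ribosomal protein scaling these counts were 17 and 7, 3 and 2, and 8 and 1, with medians of 0.062, 0.0027 and 0.27, beside 60.1% higher, 5.71% lower and a median of 0.27 for all tested genes. With library totals they were 12 and 17, 2 and 4, and 6 and 1, beside 43.9% higher and 15.5% lower. DESeq2 called 0 of the 11 genes of the endoplasmic reticulum higher and 2 lower, against 3 and 2 by edgeR.

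Partners without these symbols. Lists of co-chaperones, chaperonins and heat shock response genes outside the 80 held 49 genes, of which 45 were tested. Of the 45, 2 were higher (FKBP5 and SEC63), 30 lower (66.7%) and 13 without a call under TMM (median -0.19), none past both thresholds. Of all tested genes 32.9% were higher and 30.0% lower under TMM. Those with a mean of 1000 or more, as most of the 45 have, were lower in 57.4% (median -0.15). Library totals gave 6 higher and 17 lower, beside 43.9% higher and 15.5% lower of all tested genes. The ribosomal protein scaling gave 20 higher and 6 lower, where 60.1% of all tested genes were higher and 5.71% lower. SEC63 was not called higher by DESeq2 or with its size factors. TRiC, the cytosolic chaperonin that folds actin and tubulin, was lower in 8 of 8 tested subunits under TMM, in 7 with library totals and in 4 with the ribosomal protein scaling. CCT7 fell most of them, from 22115 ± 1230.2 to 16232 ± 445 (log2 fold change -0.45, SE 0.046, adjusted p = 2.45e-08 by edgeR).

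Of 12 HSP90 co-chaperones 7 were lower and 1 higher under TMM, but 3 and 3 with library totals and 0 and 8 with the ribosomal protein scaling. CHORDC1 had the largest change (-0.36), and STIP1 (HOP), which bridges HSP70 and HSP90, was at -0.32. The 3 HSP70 co-chaperones without a BAG or DNAJ name, led by HSPBP1 (-0.32), were lower under TMM, 1 of them with library totals, and with the ribosomal protein scaling 1 was higher. Of 4 J proteins without a DNAJ name SEC63 was higher (0.12) and GAK lower. Of 4 mitochondrial chaperones without an HSP name 3 were lower, GRPEL1 most (-0.31), but with the ribosomal protein scaling 3 were higher.

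Prefoldin, which passes clients to TRiC, had 3 of 5 tested subunits lower under TMM (PFDN1 most, -0.50). With library totals 2 were lower and 1 higher, and with the ribosomal protein scaling 1 was lower and 2 higher. The 2 genes of HSF binding proteins had no call under TMM, while 1 was higher with library totals and 1 with the ribosomal protein scaling. CRYAA, CRYAB and ODF1, small heat shock genes without an HSPB name, were not tested. Of 7 other heat shock response genes 5 were lower under TMM, 3 with library totals and 1 with the ribosomal protein scaling, where 2 were higher. SERPINH1 (HSP47), a collagen chaperone, went from 2028 ± 46.2 to 1161 ± 18.4, a log2 fold change of -0.80 (SE 0.044, adjusted p = 1.08e-12) by edgeR. HSPA5 (BiP), left out above, rose from 14694 ± 902 to 16851 ± 748 (log2 fold change 0.20, SE 0.048, adjusted p = 0.00111), and HSP90B1 was at 0.10 (adjusted p = 0.0647).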

How the data were processed

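RNA-seq counts of 3 untreated and 3 VPA-treated HEK293T libraries were analysed. The authors removed adapters and poor reads with SOAPnuke, aligned to hg38 with STAR and deposited raw counts per gene from htseq-count, without normalization. The submitters' processing notes name STAR 2.7.10b and HTSeq 2.0.1. The annotation and strand setting of the counting are not given in the sources used here. The 5 summary lines of each file were left out (per library, reads off genes 6.80% to 7.69%, ambiguous 1.97% to 2.10%, not unique 2.81% to 2.92% of the reads listed).

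Libraries were grouped by their labels. The test was that of edgeR 4.0.16 under R 4.3.3 (TMM, filterByExpr with a count minimum of 10, robust quasi-likelihood fit on condition alone, prior count 0.125, Benjamini-Hochberg adjustment over 15298 genes). The thresholds were an adjusted p of 0.05 and a log2 fold change of 1 in size. Normalized counts are TMM-scaled to the mean library, and the SE is the log2 fold change over the root of F. Ratios and shares were compared by exact permutation. The fit was tested on simulated counts in which few genes changed, as many up as down. That setting differs from these data, where far more genes were up-regulated than down-regulated, so it did not test the scaling.

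Genes were named if past both thresholds, among the 8 largest increases or decreases with a mean of at least 100, the most counted of a class, or defining stress genes. Further genes in the text (among them HSPA12B, HSPA13, HSPA14, HSPA4L, DNAJB4, DNAJB12, DNAJA2, STIP1 and GAK) and the promoters printed were picked after their values were seen. The genes and lists were chosen with earlier results of these data known. Alternatives were DESeq2 1.42.0, other scalings (its size factors, library totals, 79 ribosomal protein genes), no filter or 10 counts in every library, a block for the replicate number, and each library left out in turn. Coordinates and promoters are from RefSeq on GRCh38.p14 (80 and 69 of 80 genes matched), lengths and shared 75-base windows from GENCODE 44. Genes of chromosome X are listed at 0 and were not tested.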

Additional observations from a re-analysis of the deposited data

How the results depend on the processing

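With the ribosomal protein scaling the count of up-regulated genes was 7, and 29 were higher and 10 lower. The median of the 67 genes then turned to 0.12, and with library totals it was -0.014. Those scalings shift all genes alike. Named genes that turned direction were HSPA8 (0.0016), HSPA4 (0.099), DNAJB6 (0.063), DNAJC8 (0.00035) and HSF2 (0.19) with the ribosomal protein scaling, and HSF2 (0.058) with library totals. Of 388 comparisons over 30 named genes, 372 kept direction and side of the threshold, 10 lost the call and 6 turned. The 10 were BAG3, BAG6, HSF1, HSP90AA1 and HSPA9 with the ribosomal protein scaling, DNAJB6 and HSPA4 with library totals, DNAJB9 and DNAJC15 with DESeq2, and DNAJB9 without untreated library 3. Leaving out each library gave 2 to 4 up-regulated, 0 down-regulated, 13 to 16 higher, 29 to 32 lower and medians of -0.16 to -0.13. DESeq2 gave 10 higher and 30 lower. With 10 counts required in every library DNAJC15 and HSPA6 gave no value.

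With the replicate number as a block, 16 were higher and 32 lower, 3 were up-regulated and the median was -0.14, and no count of calls moved by over 1.5 times. Same-numbered libraries had deviations that correlated at 0.116, 0.0157 and 0.0649, and differently numbered ones at -0.0921 to 0.0313. Correlations this small cannot decide whether the numbers pair the libraries. Low counts kept the 13 untested genes from the test. Over 20% of the windows are shared with other genes in 15 genes. Those tested are HSPA1B, HSPA6, HSPE1, DNAJB11, DNAJB13, DNAJC9, DNAJC11, DNAJC14, DNAJC17 and BAG2. The untested ones are HSPA1A, HSPA7, HSPB2, HSPB6 and DNAJB3. The counts of these 15 depend on how reads were assigned.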
